A study of Mus musculus with 4 samples.

Results

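The genes described here encode the nuclear subunits of the mitochondrial respiratory chain and of ATP synthase, as named on an Agilent mouse expression array. A probe belonged to the set when its gene name began with Ndufa, Ndufb, Ndufc, Ndufs, Ndufv, Uqcr, Cox4, Cox5, Cox6, Cox7, Cox8 or Atp5, or was Sdha, Sdhb, Sdhc or Sdhd, with assembly factors named Ndufaf and pseudogenes left out. That rule took 86 of the 36095 genes or names on the array, and used no measured value. Described here are 85 of them, read by 120 of the 55681 distinct probes on the array. By function these were 35 genes of complex I, 4 of complex II, 8 of complex III, 20 of complex IV, 15 of complex V and 3 genes that carry such a name but are not counted as subunits.

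RNA came from RAW264.7, an established mouse macrophage-like line. All cultures carried a stably integrated artificial-microRNA vector and were selected with blasticidin as bulk populations, per the labels' protocols. The microRNA was either aimed at Linc-AAM, a lincRNA of activated macrophages (labelled knockdown), or a scramble control (labelled scramble). Each line was kept for 4 h with 50 µg/mL AEPS, a polysaccharide of Actinidia eriantha roots, or in DMEM medium alone, which gave 4 groups of 1 array each: labelled knockdown under AEPS, labelled knockdown in DMEM, labelled scramble under AEPS and labelled scramble in DMEM. The comparisons are thus AEPS against DMEM within each line, and the 2 lines against each other in each medium.

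The respiratory chain sits in the inner mitochondrial membrane. Complex I takes electrons from NADH and complex II from succinate, ubiquinone carries them to complex III, and cytochrome c carries them on to complex IV, which reduces oxygen. Complexes I, III and IV pump protons, and complex V, the ATP synthase, uses the gradient to make ATP. Macrophages activated through Toll-like receptors are known to shift from respiration towards glycolysis, and electron transport at complexes I and II is also a source of mitochondrial reactive oxygen species in them.

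Levels are log2 of the processed intensity minus the 75th percentile of the same array, so that 0 stands for that percentile, and all differences are on this log2 scale. No group had a replicate, so a difference between 2 arrays has no test. An additive limma model of line and treatment over all 4 arrays gave the only p-values (Benjamini-Hochberg adjustment over 22338 genes, threshold 0.05), which measure just the spread between these arrays. That spread is a gene's difference in AEPS response between the lines, the 1 residual degree of freedom, moderated by a prior from all genes tested. It holds no spread between repeated cultures. Spots well above background made up 53.4% to 58.0% of an array, 0 spots were saturated, and repeated spots of a probe had a median SD of 0.0365 to 0.0461 within an array. Of the macrophage markers looked up, 9 of 10 were well above background on all 4 arrays and Mertk was not on any. For the other cell types the counts on all 4 arrays were 3 of 4 for T cells (Cd3e, Cd4 and Lck), 1 of 3 for B cells, 1 of 4 for fibroblasts, 0 of 3 for epithelium and 1 of 4 for muscle. The scanner files used here and the authors' deposited value table disagree on the lines: each table column ordered the probes almost exactly as the scanner file of the other line under the same treatment did, while its Spearman rho with the file of its own name was at most 0.96896 across probes. Every difference between the lines below therefore takes the opposite sign if the table's labels are the right ones, while AEPS and DMEM stand in the same place in both.

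Nuclear respiratory genes are known to share binding motifs for the transcription factors NRF1 and GABP, and these were looked up in the 250 bases before the start of each gene in the RefSeq promoter table, build GRCm38.p6, which matched 70 of the 85 members. The NRF1 letters, GCGCA followed by its reverse complement TGCGC and so the same on both strands, stood in 4 of the 70 (5.71%), against 211 of 27025 promoters in the table (0.781%). The ETS letters of GABP, CCGGAAG or CTTCCGG on the other strand, stood in 11 of the 70 (15.7%), against 1906 of the same 27025 (7.05%). Only the promoter of Cox6a1 held both motifs, and they did not overlap. A match describes the letters of the window and is no evidence of binding. The 4 windows with the NRF1 letters are shown because this motif is the textbook element of the gene set, with the motif in capitals and 20 bases on each side, each written along the strand of its gene.
Atp5k, chr5:108434420-108434469 (minus strand), motif start 50 bases before the gene start: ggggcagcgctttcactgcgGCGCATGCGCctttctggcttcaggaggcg
Cox6a1, chr5:115349091-115349140 (minus strand), motif start 162 bases before the gene start: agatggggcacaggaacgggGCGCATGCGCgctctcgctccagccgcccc
Atp5g2, chr15:102671060-102671109 (minus strand), motif start 42 bases before the gene start: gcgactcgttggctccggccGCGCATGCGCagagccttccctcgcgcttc
Ndufa11, chr17:56717682-56717731 (plus strand), motif start 60 bases before the gene start: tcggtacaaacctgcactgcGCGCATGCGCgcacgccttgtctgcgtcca

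Nearly the whole set was present in these macrophages. Of the 85 members, 81 were well above background on all 4 arrays, Ndufa4l2 was so on the 2 AEPS arrays alone, and the tissue-restricted complex IV forms Cox7b2, Cox8b and Cox8c were not on any array. The limma model tested the other 82. All 35 complex I, 4 complex II, 8 complex III and 15 complex V members were among the 81.

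AEPS left most members close to their level in DMEM. RNA was taken from whole cultures, where fewer cells with a transcript and less of it per cell cannot be told apart. In the model over both lines 1 of the 82 tested members rose (Cox6a2) and 0 fell, where 7.40% of all genes tested were called higher and 7.29% lower. An unadjusted p under 0.05 was reached by 3 members (Cox6a2, Atp5sl and Cox4nb), against 33.9% of all genes. The standard error of a member's AEPS effect was 0.11 to 0.31, with a median of 0.12. The 95% interval of the effect lay inside 2-fold in either direction for 80 of the 82 members and inside 1.5-fold for 76. The 2 members whose interval passed 2-fold were Cox6a2 and Ndufa4l2 (-0.36 to 1.41). The intervals rest on the model's spread and give no range for repeated cultures.

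The spread of the members was narrow beside that of all genes, which were not matched to them for intensity. On the arrays labelled knockdown, 74 of the 81 members (91.4%) differed by at most 0.3 between AEPS and DMEM, against 56.9% of the 20336 genes well above background on all 4 arrays. On the arrays labelled scramble, 78 members (96.3%) did so, against 53.4% of those genes. The members' median AEPS effect over both lines was 0.09 with quartiles of 0.00 and 0.14, and all genes had a median of 0.07 with quartiles of -0.22 and 0.28. Other mitochondrial genes, listed further below, could be as narrow. The quartiles were -0.03 and 0.07 for the mitochondrial genome and -0.14 and 0.05 for the tricarboxylic acid cycle list. They were -0.33 and 0.18 for the regulators of mitochondrial biogenesis. The sign of the members' median depended on the scaling: over the 81 members it was 0.09 here, -0.02 with each array centred on its median and -0.12 with quantile normalization, where all genes on 4 arrays had 0.06, -0.04 and -0.02. No direction for the family as a whole is therefore given.

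**Figure D1:**
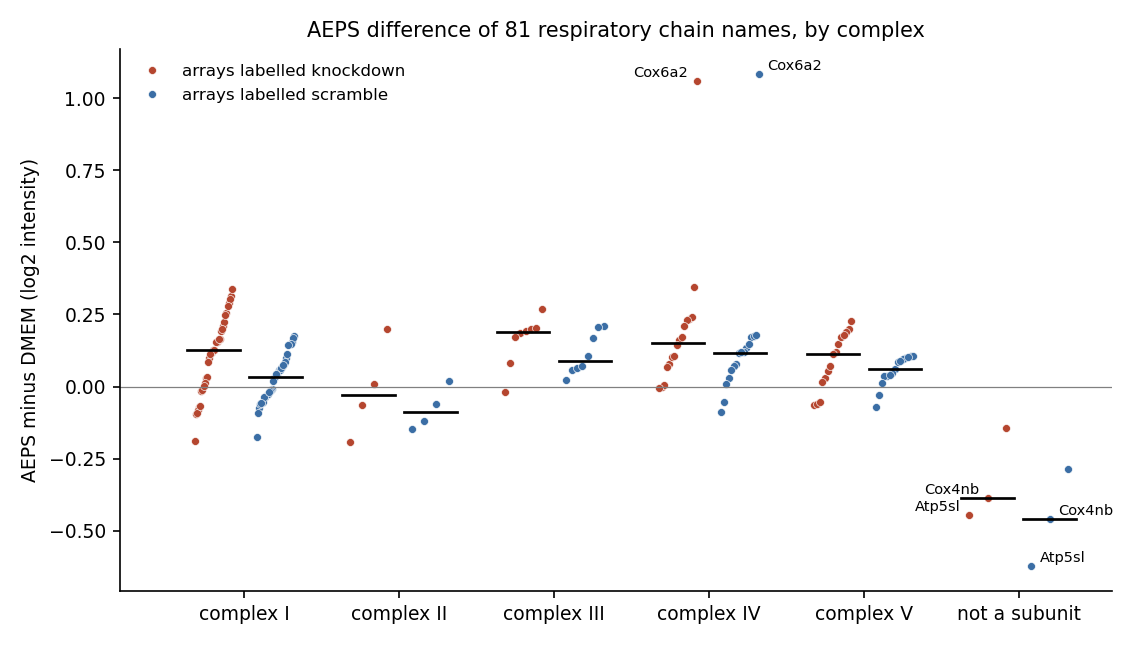
AEPS minus DMEM in log2 intensity for the 81 members well above background on all 4 arrays, grouped by complex, with the arrays labelled knockdown to the left in each pair and those labelled scramble to the right; each point is 1 gene and each black bar a group median. Most points lie within 0.3 of 0, Cox6a2 stands above 1 in both lines, and the 3 genes that are not subunits lie below 0.

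Complex I is the NADH dehydrogenase. The 6 core subunits described here, among them carriers of the flavin and of iron-sulfur clusters, had a median AEPS difference of 0.05 on the arrays labelled knockdown (-0.08 to 0.17) and -0.06 on those labelled scramble (-0.18 to -0.03). Ndufv1, the subunit that binds NADH, stood at 6.21 under AEPS and 6.04 in DMEM on the arrays labelled knockdown, and at 6.15 under AEPS and 6.20 in DMEM on those labelled scramble. The 29 accessory subunits had a median of 0.13 on the arrays labelled knockdown and 0.06 on those labelled scramble. None of the 35 genes passed the limma test, and none differed at 1.5-fold between the 2 media in either line.

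The accessory subunits with the largest effects in the model were Ndufa1, Ndufa12 and Ndufa7. Ndufa1 stood at 6.31 under AEPS and 6.02 in DMEM on the arrays labelled knockdown, and at 6.19 under AEPS and 6.01 in DMEM on those labelled scramble (0.23 ± 0.12, SE, adjusted p = 0.248). Ndufa12 stood at 6.63 under AEPS and 6.32 in DMEM on the arrays labelled knockdown, and at 6.58 under AEPS and 6.43 in DMEM on those labelled scramble (0.23 ± 0.12, SE, adjusted p = 0.265). Ndufa7 stood at 6.23 under AEPS and 5.93 in DMEM on the arrays labelled knockdown, and at 6.32 under AEPS and 6.17 in DMEM on those labelled scramble (0.23 ± 0.12, SE, adjusted p = 0.263). As scaled here, both AEPS arrays lay above both DMEM arrays for each of these genes, by less than the model could separate from the spread between arrays. The direction depends on the scaling. Of the 35 complex I genes, 27 were above 0 for AEPS minus DMEM on the arrays labelled knockdown and 20 on those labelled scramble. Of the 20336 genes well above background on every array, 11337 and 11377 were. With quantile normalization 8 and 2 of the 35 were, against 9612 and 9517 of the 20336 genes.

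Ndufv3, an accessory subunit of the NADH-binding module that is known to be spliced into a short and a long form, was read differently by its 2 probes. The probe at chromosome 17, 31665148 to 31665207 in mm9, stood at -0.80 under AEPS and 0.07 in DMEM on the arrays labelled knockdown, and at -1.43 under AEPS and -0.62 in DMEM on those labelled scramble. It was lower under AEPS in both lines, by 0.87 and 0.81 log2 units, and a limma fit to single probes, chosen after seeing the data, called it lower (-0.84 ± 0.12, SE, adjusted p = 0.0308). The other probe, at 31668209 to 31668268, stood at 6.29 under AEPS and 6.18 in DMEM on the arrays labelled knockdown, and at 6.29 under AEPS and 6.31 in DMEM on those labelled scramble, with an effect of 0.05 in the same fit (adjusted p = 0.807). The counts of members above use that second probe, the one with the higher mean. Which form each probe reads is not annotated in the sources used here. The sequence of the probe that was lower under AEPS is shown so that it can be placed on the transcripts: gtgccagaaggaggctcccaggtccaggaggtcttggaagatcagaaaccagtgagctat.

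Complex II, the succinate dehydrogenase, links the chain to the tricarboxylic acid cycle. Sdha, the flavoprotein that oxidises succinate, stood at 5.25 under AEPS and 5.44 in DMEM on the arrays labelled knockdown, and at 5.23 under AEPS and 5.35 in DMEM on those labelled scramble. Both AEPS arrays were slightly below both DMEM arrays, and the effect of -0.16 ± 0.11 did not pass the test (SE, adjusted p = 0.396). Sdhb, the iron-sulfur subunit, differed by -0.06 in each line. The membrane anchors Sdhc and Sdhd differed by 0.20 and 0.01 on the arrays labelled knockdown and by 0.02 and -0.15 on those labelled scramble.

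Complex III passes electrons from ubiquinol to cytochrome c. Of its 8 genes, 7 were above 0 for AEPS minus DMEM on the arrays labelled knockdown (-0.02 to 0.27). On those labelled scramble 8 were (0.02 to 0.21). Of the 20336 genes well above background on every array, 11337 and 11377 were. With quantile normalization 3 and 1 of the 8 were, against 9612 and 9517 of the 20336 genes. In the limma test 0 of the 8 passed. Uqcrb, a small subunit at the ubiquinone pocket, had the largest effect. It stood at 6.70 under AEPS and 6.43 in DMEM on the arrays labelled knockdown, and at 6.76 under AEPS and 6.55 in DMEM on those labelled scramble. Its 3 probes differed by at most 0.10 in any comparison, and the effect was 0.24 ± 0.11 (SE, adjusted p = 0.232). Uqcrfs1, the Rieske iron-sulfur protein, differed by 0.20 and 0.21 in the lines labelled knockdown and scramble. Uqcrq, another small subunit, differed by 0.17 in each. The core proteins Uqcrc1 and Uqcrc2 had effects of 0.00 and 0.13 in the model.

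Complex IV, cytochrome c oxidase, has several subunits with a common form and a tissue-restricted form, and its 1 called gene was of the second kind. Cox6a2, the heart and skeletal muscle form of subunit VIa (probe at chromosome 7, 135349160 to 135349219 in mm9), stood at -0.04 under AEPS and -1.10 in DMEM on the arrays labelled knockdown, and at -0.29 under AEPS and -1.37 in DMEM on those labelled scramble. Both AEPS arrays lay above both DMEM arrays, by about the same amount in each line. Cox6a2 thus rose by 1.06 on the arrays labelled knockdown and 1.08 on those labelled scramble, and the model gave 1.07 ± 0.11 (SE, 95% interval 0.75 to 1.39, adjusted p = 0.019). Without the filter on dim genes its adjusted p was 0.106, and with normexp background correction the effect was 0.89, with no pairwise difference at 2-fold. Of the muscle markers Ckm, Acta1 and Myl2 were not well above background on any array. Myh7 was on all 4, at -3.51 under AEPS and -3.51 in DMEM on the arrays labelled knockdown, and at -3.48 under AEPS and -3.71 in DMEM on those labelled scramble. Cox6a1, the common form of the same subunit, had levels of 9.03 under AEPS and 9.03 in DMEM on the arrays labelled knockdown, and of 9.05 under AEPS and 8.87 in DMEM on those labelled scramble (0.09 ± 0.12, SE, adjusted p = 0.645). The 4 values of Cox6a1 span less than those of Cox6a2 in either line.

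**Figure D2:**
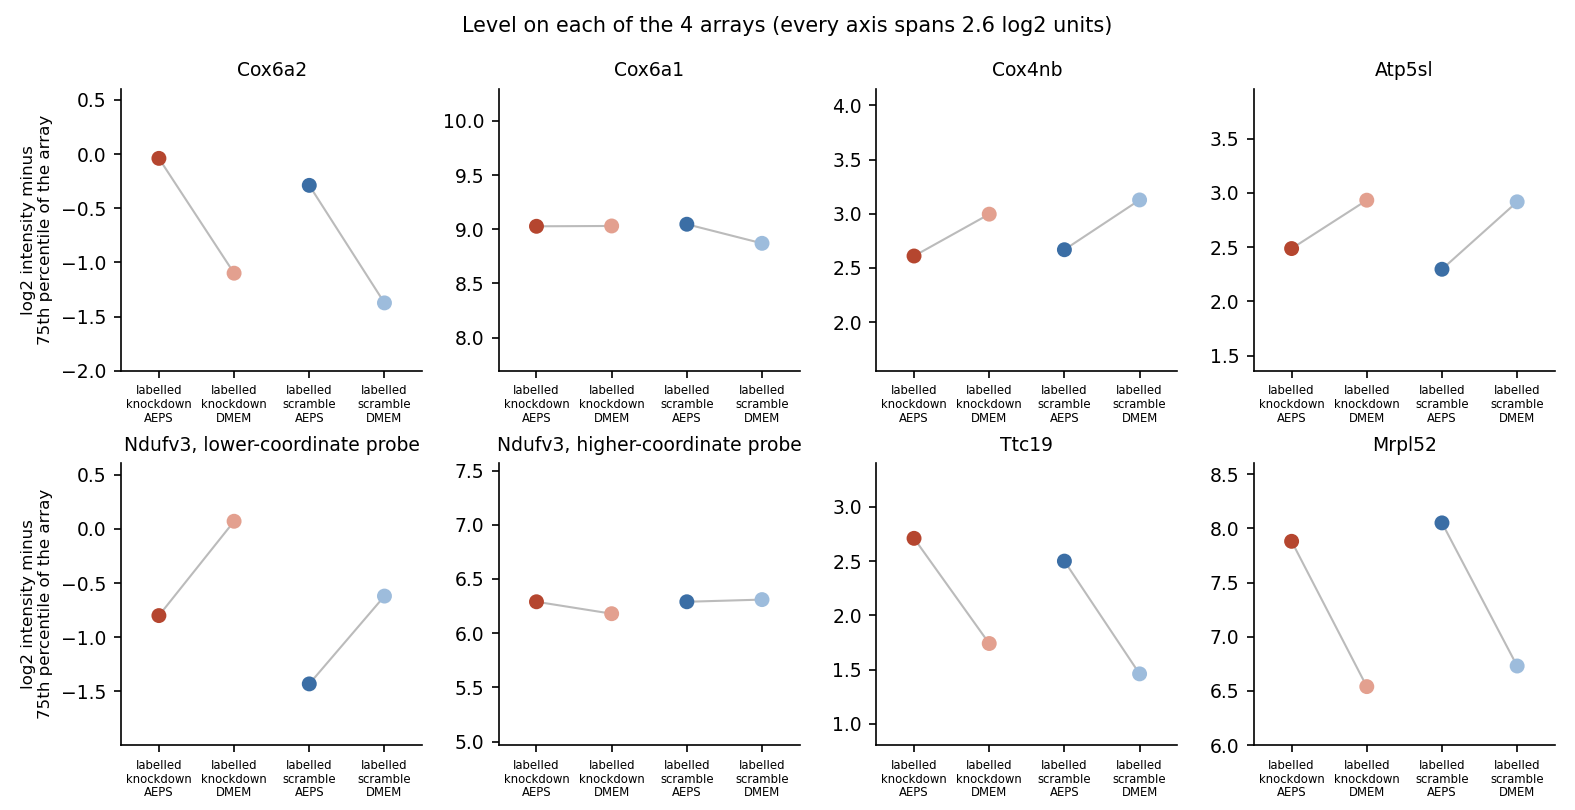
Level of 8 probes on each of the 4 arrays, as log2 intensity minus the 75th percentile of the array, in the order labelled knockdown under AEPS, labelled knockdown in DMEM, labelled scramble under AEPS and labelled scramble in DMEM; lines join the 2 arrays of a line, every axis spans the same number of log2 units, and levels of different probes cannot be set against each other. Cox6a2, Ttc19 and Mrpl52 were higher on both AEPS arrays, Atp5sl, Cox4nb and the lower-coordinate Ndufv3 probe were lower on both, and Cox6a1 and the other Ndufv3 probe were nearly level.

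None of the other paired forms of complex IV passed the test. The 11 common forms tested had AEPS differences of at most 0.34 on the arrays labelled knockdown and 0.18 on those labelled scramble, with medians of 0.17 and 0.12. The direction depends on the scaling. For the 16 complex IV genes on all 4 arrays, medians of 0.15 and 0.12 became 0.01 and -0.07 with quantile normalization. All genes had 0.05 and 0.06 here and -0.02 and -0.03 with it. Cox4i1, the common form of subunit IV, had an effect of 0.17 and its hypoxia-related and lung form Cox4i2 one of 0.11. Cox6b1 had 0.01 and the testis form Cox6b2 had 0.10. Cox7a2 had 0.16 and the muscle form Cox7a1 had 0.01. Cox5a and Cox5b had 0.05 and 0.14, Cox7b 0.18 and Cox8a 0.08, all with standard errors of 0.11 or 0.12 and none past the test. Cox7a2l, which is known to hold complexes III and IV together in supercomplexes, had 2 probes with differences of -0.09 to 0.02 in both lines. Its remaining probe stood at 3.43 under AEPS and 3.95 in DMEM on the arrays labelled knockdown and at 3.32 under AEPS and 3.42 in DMEM on those labelled scramble (adjusted p = 0.264 in the single-probe fit). The array labelled knockdown in DMEM was the one that stood apart.

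Ndufa4 and Ndufa4l2 carry complex I names, but Ndufa4 is now counted as a subunit of complex IV. Ndufa4 stood at 5.89 under AEPS and 5.55 in DMEM on the arrays labelled knockdown, and at 5.77 under AEPS and 5.65 in DMEM on those labelled scramble (0.23 ± 0.13, SE, adjusted p = 0.279). Its paralogue Ndufa4l2, known as a hypoxia-induced gene, was dim, at -4.54 under AEPS and -4.50 in DMEM on the arrays labelled knockdown, and at -4.04 under AEPS and -5.14 in DMEM on those labelled scramble. Neither DMEM array was well above background for it. On the arrays labelled scramble the difference was 1.10 log2 units, against a DMEM reading that was itself not well above background. With normexp background and with array-median scaling it was below 2-fold. On the arrays labelled knockdown no fold is given. At 2-fold, then, the arrays labelled knockdown had 1 member higher, Cox6a2 (4.64% of all genes were), and 0 lower (3.49%). The arrays labelled scramble had 2 higher, Cox6a2 and Ndufa4l2 (6.69%), and 0 lower (5.22%). At 1.5-fold those labelled knockdown had 1 higher, Cox6a2 (10.4%), and 0 lower (10.1%), and those labelled scramble had the same 2 higher (13.0%) and 1 lower, Atp5sl (12.0%).

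Complex V varied little, with AEPS differences of -0.06 to 0.23 on the arrays labelled knockdown and -0.07 to 0.11 on those labelled scramble over its 15 genes. Its medians on these arrays, 0.11 and 0.06, became -0.12 and -0.16 with quantile normalization. All genes had 0.05 and 0.06 here and -0.02 and -0.03 with it. Atp5b, the catalytic beta subunit of the F1 head, stood at 8.42 under AEPS and 8.39 in DMEM on the arrays labelled knockdown, and at 8.43 under AEPS and 8.33 in DMEM on those labelled scramble. Atp5a1, the alpha subunit, differed by -0.06 in the line labelled knockdown and 0.11 in the line labelled scramble. Atp5g1, Atp5g2 and Atp5g3, which encode the same mature subunit of the rotating c ring, had effects of 0.11, 0.11 and -0.01. The peripheral stalk subunits Atp5j and Atp5f1 each had 0.13, as did the membrane subunit Atp5k, with a standard error of 0.12 in each case. All of these were too small for the model to call.

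The 3 names that are no subunits had the lowest effects among the members tested. Atp5sl is now named Dmac2, known in human cells as a factor for the assembly of the distal membrane arm of complex I. It stood at 2.49 under AEPS and 2.93 in DMEM on the arrays labelled knockdown, and at 2.30 under AEPS and 2.92 in DMEM on those labelled scramble (-0.53 ± 0.12, SE, adjusted p = 0.0673). Cox4nb is now named Emc8 and encodes a subunit of the endoplasmic reticulum membrane complex. It stood at 2.61 under AEPS and 2.996 in DMEM on the arrays labelled knockdown, and at 2.67 under AEPS and 3.13 in DMEM on those labelled scramble (-0.42 ± 0.11, SE, adjusted p = 0.092). For both genes the 2 AEPS arrays lay below the 2 DMEM arrays, and neither passed the threshold as fitted here. Both did with normexp background correction (adjusted p = 0.0129 and 0.0471), with array-median scaling (0.023 and 0.0477) and with an intensity trend in the prior (0.00988 and 0.0232). Neither did in the single-probe limma fit (adjusted p = 0.073 and 0.1) or with no filter on dim genes, which left no member called. Atp5s, now named Dmac2l, had an effect of -0.21 (adjusted p = 0.286).

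The lists of other mitochondrial genes were read from the same limma model. Of the 12 protein genes of the mitochondrial genome, which encode further subunits of complexes I, III, IV and V, 0 were called in either direction and the effects ran from -0.16 to 0.13. The 17 genes of the tricarboxylic acid cycle and pyruvate dehydrogenase had 0 calls and a median of -0.02. The 12 regulators of mitochondrial biogenesis had 0 calls and a median of -0.08, with Nrf1 at -0.02, Gabpa at 0.17, Esrra at 0.22 and Tfam at -0.15, and Ppargc1a was not well above background on any array. The 13 genes of nucleotide exchange and uncoupling had 0 calls, with Pdk1, which inhibits pyruvate dehydrogenase, at -0.68 ± 0.13 (SE, adjusted p = 0.0534) and Hif1a, the hypoxia factor, at 0.54 ± 0.12 (SE, adjusted p = 0.0655).

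Calls in the remaining 3 lists were few, and are read against the 7.40% of all genes called higher and the 7.29% called lower. Assembly factors had 3 of 43 genes higher and 0 lower, a share of higher genes near that of all genes. Ttc19, a factor of complex III turnover, stood at 2.71 under AEPS and 1.74 in DMEM on the arrays labelled knockdown, and at 2.50 under AEPS and 1.46 in DMEM on those labelled scramble (1.0 ± 0.11, SE, adjusted p = 0.0212). Cox17 and Sco2, which deliver copper to complex IV, rose by 0.74 ± 0.14 (SE, adjusted p = 0.046) and 0.60 ± 0.11 (SE, adjusted p = 0.0482). The 15 genes of electron carriers and ubiquinone synthesis had 1 gene lower, Coq8a, a kinase-like protein of ubiquinone synthesis (-1.33 ± 0.25, SE, adjusted p = 0.0491), while cytochrome c itself, Cycs, had 0.28 (adjusted p = 0.189). The mitochondrial ribosome had 1 of 77 genes higher, Mrpl52, at 7.88 under AEPS and 6.54 in DMEM on the arrays labelled knockdown and at 8.05 under AEPS and 6.73 in DMEM on those labelled scramble (1.33 ± 0.11, SE, adjusted p = 0.0136). It had 2 genes lower, Mrps6 (-0.82 ± 0.13, SE, adjusted p = 0.0349) and Mrps35 (-0.62 ± 0.12, SE, adjusted p = 0.0496). The medians of these 3 lists, 0.08, 0.01 and 0.09, lay beside 0.07 for all genes.

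**Figure D3:**
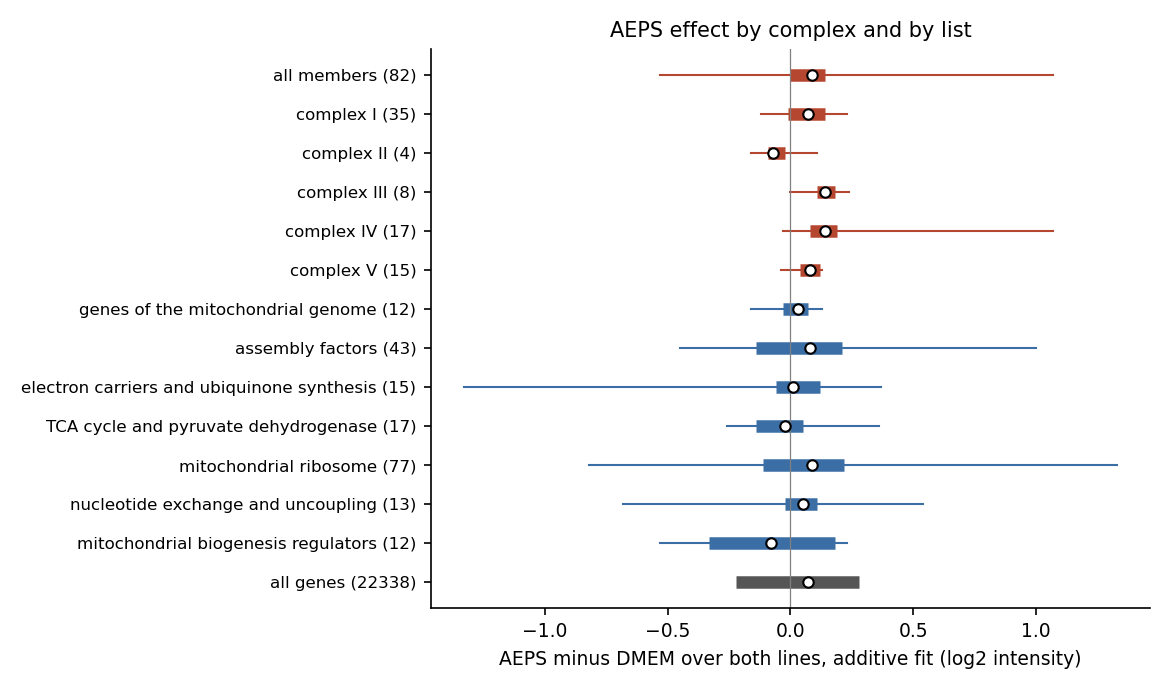
AEPS minus DMEM over both lines in log2 intensity, from the additive limma model, for the members and their complexes (red), for lists of other mitochondrial genes (blue) and for all genes tested (grey), with the number of genes tested in brackets. White points are medians, thick bars the quartiles and thin lines the lowest and highest gene (not drawn for all genes); the quartiles of the members run from 0.00 to 0.14 and those of all genes from -0.22 to 0.28.

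Between the lines 0 of the 82 members tested were called in either direction over both media, where 0.398% of all genes were called higher in the line labelled knockdown and 0.340% lower. At an unadjusted p under 0.05 the count was also 0, against 14.6% of all genes. The largest effects were -0.31 for Ndufb5 (adjusted p = 0.381), -0.30 for Cox7a2 (adjusted p = 0.392), -0.29 for Ndufab1, the mitochondrial acyl carrier protein (adjusted p = 0.41), -0.29 for Ndufc1, an accessory subunit named after its values were seen (adjusted p = 0.398), and -0.28 for Atp5e, the epsilon subunit of F1 (adjusted p = 0.397). The 95% interval lay inside 2-fold for all 82 members tested. In single media, 0 members differed at 2-fold or at 1.5-fold under AEPS or in DMEM. For all genes the shares at 2-fold were 1.85% higher and 2.69% lower under AEPS, and 2.36% higher and 1.51% lower in DMEM. At 1.5-fold they were 5.56% and 5.69% under AEPS, and 5.95% and 4.00% in DMEM. The counts and largest effects of members take 1 probe per gene. The other Ndufv3 probe, the one lower under AEPS, passed 1.5-fold between the lines. It was higher in the line labelled knockdown by 0.63 under AEPS and 0.69 in DMEM. The single-probe fit did not call that line difference (0.66 ± 0.12, SE, adjusted p = 0.162).

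Most complex I genes were slightly lower in the line labelled knockdown, and the mitochondrial ribosome leaned the same way as scaled here. Of the 35 complex I genes 26 (74.3%) were lower under AEPS, with a median of -0.07, where 9968 of the 20336 genes well above background on all 4 arrays were lower. In DMEM 32 of the 35 (91.4%) were lower, with a median of -0.13, against 52.9% of all those genes. The mitochondrial ribosome had 54 of 77 genes lower under AEPS (median -0.05) and 63 of 77 in DMEM (median -0.13). Assembly factors had 20 of 43 lower under AEPS (median 0.01) and 32 of 43 in DMEM (median -0.13). Ndufb5 stood at 5.31 under AEPS and 5.16 in DMEM on the arrays labelled knockdown, and at 5.54 under AEPS and 5.55 in DMEM on those labelled scramble. Ndufab1 stood at 2.55 under AEPS and 2.33 in DMEM on the arrays labelled knockdown, and at 2.75 under AEPS and 2.72 in DMEM on those labelled scramble. Both were lower on the 2 arrays labelled knockdown, and lowest on the one in DMEM. With quantile normalization 18 of 35 complex I genes were lower under AEPS and 26 of 35 in DMEM, against 45.1% and 50.4% of all genes, and the ribosome had 34 and 50 of 77. With the authors' value table, whose line labels are the opposite, 16 and 9 complex I genes and 54.7% and 49.4% of all genes were lower. Complex III and complex IV had medians of 0.08 and 0.06 under AEPS and 0.01 and 0.00 in DMEM; the difference from complex I was not tested.

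**Figure D4:**
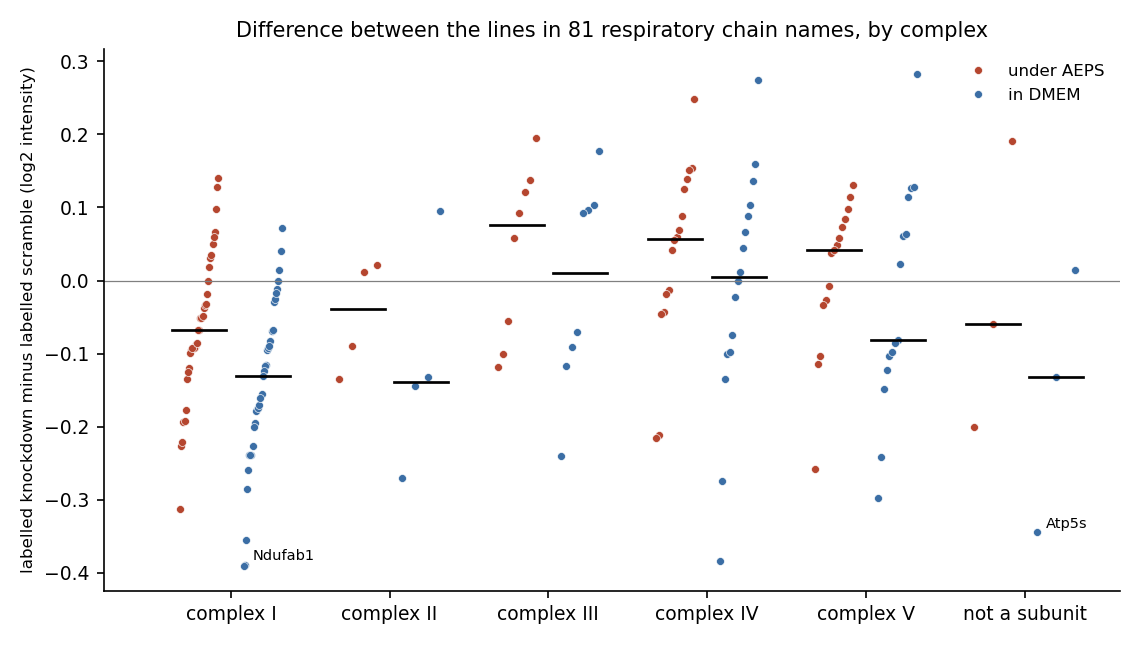
Labelled knockdown minus labelled scramble in log2 intensity for the 81 members well above background on all 4 arrays, grouped by complex, with the AEPS arrays to the left in each pair and the DMEM arrays to the right; each point is 1 gene and each black bar a group median. Complex I lies mostly below 0, with 26 of 35 genes under AEPS and 32 of 35 in DMEM (18 and 26 with quantile normalization), and Ndufab1 is at -0.39 in DMEM.

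The comparisons of AEPS on the arrays labelled knockdown and of the lines in DMEM share the array labelled knockdown in DMEM. As scaled here, that array was the lowest of the 4 for 45 of the 81 members (55.6%) and the highest for 6 (7.41%), against 30.1% and 20.6% of the 20336 genes. These counts are given for this scaling alone. A related count, of members higher under AEPS on the arrays labelled knockdown, depended on the scaling. It was 62 of the 81 members here (11337 of the 20336 genes), but 22 with quantile normalization (9612 of the 20336). The array labelled knockdown in DMEM also had the lowest share of spots well above background (53.4%) and the lowest 75th percentile of intensity (439.1, against 448.3 to 587.7 on the other arrays). The part of these in the members' values was not tested. The difference in AEPS response, labelled knockdown minus labelled scramble, had a median of 0.08 over the 81 members and 0.04 over all 20336 genes, without a test because no residual degree of freedom is left. At 2-fold 0 members differed in response, where 0.526% of all genes were higher and 1.63% lower. At 1.5-fold 0 members differed either, against 3.61% higher and 5.23% lower among all genes, and the members ran from -0.27 to 0.23.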

How the data were processed

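The authors deposited 1 scanner file per array and a value table of the series. Per the file headers, the scanner files were made with Agilent Feature Extraction 10.7.1.1 and hold spot intensity, background-subtracted and detrended within an array and not scaled between arrays; the 4 arrays were on the same slide and were scanned together. The deposited value table holds log2 values, and the sources used here do not say how they were made; its columns have the same distribution of values, as quantile normalization leaves them, and it served as an alternative. Per the labels, each array is 1 culture, and nothing says that a culture was repeated.

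From the processed intensity, log2 was taken, and the 75th percentile of the non-control spots of an array was subtracted from it. Outlier spots were left out, spots of a probe averaged, and a gene took its probe with the highest mean. Names were updated through the RefSeq gene table (assembly GRCm38.p6), which renamed 4 members; probe coordinates are the mm9 ones of the files. The 22338 genes that 2 or more arrays showed well above background entered limma 3.58.1 in R 4.3.3 (lmFit of line plus treatment, eBayes, 1 residual degree of freedom, 2.82 prior degrees of freedom, prior SD 0.132). The step was run on simulated arrays with known treatment effects. These held no shift between arrays, so they do not bear on the scaling. Pairwise differences of at least 2-fold (and 1.5-fold) were counted where a gene was well above background on both arrays. Where it was so on 1 of the 2 arrays, the difference was taken against the dim array's own value or its dimmest spot that still counted as above background, whichever was higher.

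Of the 86 genes that the rule took, 1 is not reported here; it entered the fit across all genes and no count of members. The members, the lists and the settings were chosen with earlier results of these data known. Genes named in the text are members called by limma, at least 1.5-fold different in any pair of arrays or well above background on only some arrays, the 3 largest AEPS and 2 largest line effects per complex, the SDH subunits and the isoform sets of complexes IV and V. Atp5b, Ndufv1, Ndufv3, Atp5s, Cox4nb and the genes named from the lists were chosen after their values were seen. Alternatives were normexp background, quantile and array-median scaling, the value table, other filters on dim genes, the mean of all probes, an intensity trend in the prior and, added after seeing the data, each probe tested on its own.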

Additional observations from a re-analysis of the deposited data

How the results depend on the processing

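The count of members called for AEPS over both lines, 1 as reported, was 3 with normexp background and with array-median scaling, 2 with genes well above background on all 4 arrays, 0 with no filter on dim genes, 4 with an intensity trend in the prior (adding Atp5sl, Cox4nb and Uqcrb) and 2 with each probe tested on its own. The count for the lines, 0 as reported, was 1 with the intensity trend (Atp5e, -0.28). At 2-fold, AEPS on the arrays labelled knockdown had 1 member, against 0 with normexp. AEPS on the arrays labelled scramble had 2, against 0 with normexp and with array-median scaling and 1 with quantile normalization, with the value table and with the filter on all 4 arrays. The difference in response had 0 members at 1.5-fold and 2 with no filter, where Cox8b (-0.62) and Ndufa4l2 (-1.14) were dim. Apart from the fewer or more genes tested under the filters, the cause was not tested. Under the other 43 settings of these counts they stayed within 1.5 times, and no called gene turned its sign. Cox6a2 kept a positive AEPS effect in all the settings named here, at 0.89 with normexp and 0.97 with array-median scaling. Array-median scaling moved the median of all genes by about 0.1 log2 units for the lines in DMEM (to -0.11) and for AEPS on the arrays labelled scramble (to -0.09). No paired analysis was possible because the groups share only replicate number 1, which leaves no block by number beside the line and treatment terms; the model itself compares AEPS with DMEM within each line. With 4 arrays and 1 residual degree of freedom, the 95% interval of a member's AEPS effect had a median half-width of 0.33 log2 units.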
